A study of Homo sapiens with 6 samples.

Results

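Cytosolic and mitochondrial chaperone genes of the HSP70, HSP110, HSP60 and small heat shock protein families were examined in ARPE-19, an established line of human retinal pigment epithelial cells, together with the BAG cochaperones and 2 heat shock transcription factors. The members were chosen by gene symbol: DNAJ, HSP, CCT, BAG and HSF genes of fixed patterns that the array annotation names, with pseudogenes left out. This gave 24 of the 14884 named genes. Of these, 20 encode proteins of the cytosol, 2 of the mitochondrion and 2 of the nucleus. The rule would take in DNAJ, CCT, HSP90 and endoplasmic reticulum (ER) chaperones too, but of 90 human genes looked for, 66 had no named probe and were not analysed here. Among them were all 43 DNAJ, 8 CCT and 3 HSP90 genes and all 14 ER chaperones that were looked for, groups that share some genes. The members therefore give no view of the J-domain, CCT or HSP90 chaperones, and the ER is seen only through partner genes outside the rule. HSPA8, HSPE1, BAG6 and HSF2 match the rule too but are not among the members. The HSP70, BAG, heat shock factor and mitochondrial groups are thus incomplete.

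The 6 cultures had been grown to confluence, kept in 1% serum for 4 weeks to differentiate, and moved to medium without serum. For the last 2 days, 3 biological replicates received vehicle (untreated) and 3 received 250 µM FAC (usually short for ferric ammonium citrate, a soluble iron salt). All cultures were of 1 cell line, and each was hybridised to 1 array. Levels are log2 intensities, and a change is the FAC mean minus the untreated mean on that scale ± SE, so that a change of 1 would be a doubling. A gene was called changed at an adjusted p under 0.05 (limma, Benjamini-Hochberg over all 14884 genes).

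Chaperones hold unfolded proteins and help them to fold, reassemble or be degraded. HSP70 proteins bind and release a client in a cycle driven by ATP. J-domain proteins bring clients and speed the hydrolysis step, while HSP110 and BAG proteins release the nucleotide so that the client can leave. Small heat shock proteins hold clients without ATP, and HSF1 switches on many of these genes when unfolded protein builds up in the cytosol. The mitochondrion has its own HSP70 and a closed folding chamber made of HSP60. Iron can promote the oxidation of proteins and lipids, and in the retinal pigment epithelium iron overload has been linked to retinal disease.

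Of the 24 members, 2 rose with FAC, the small heat shock protein gene HSPB3 and the cochaperone gene BAG2, and 0 fell. By limma 8.33% of the members were called, against 3.73% of all named genes (1.88% higher and 1.85% lower with FAC). With 2 genes the share is too coarse to set the members apart from that background. At an unadjusted p under 0.05 there were 4 members (16.7%, against 17.2% of all genes). The changes of all 24 members ran from -0.13 to 0.44, with a median of 0.0099 beside -0.0041 over all genes. Of these changes, 12 lay above 0 and 12 below. The stress-responsive genes HSPA1A, HSPA1B and HSPB1 did not pass the test, nor did either mitochondrial member or either heat shock factor. When each array was left out in turn, between 0 and 1 of the 2 genes passed. The changes then stayed between 0.30 and 0.39 for BAG2 and between 0.39 and 0.53 for HSPB3. Calls over all genes fell too in these smaller fits, from 555 to between 147 and 447.

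**Figure D1:**
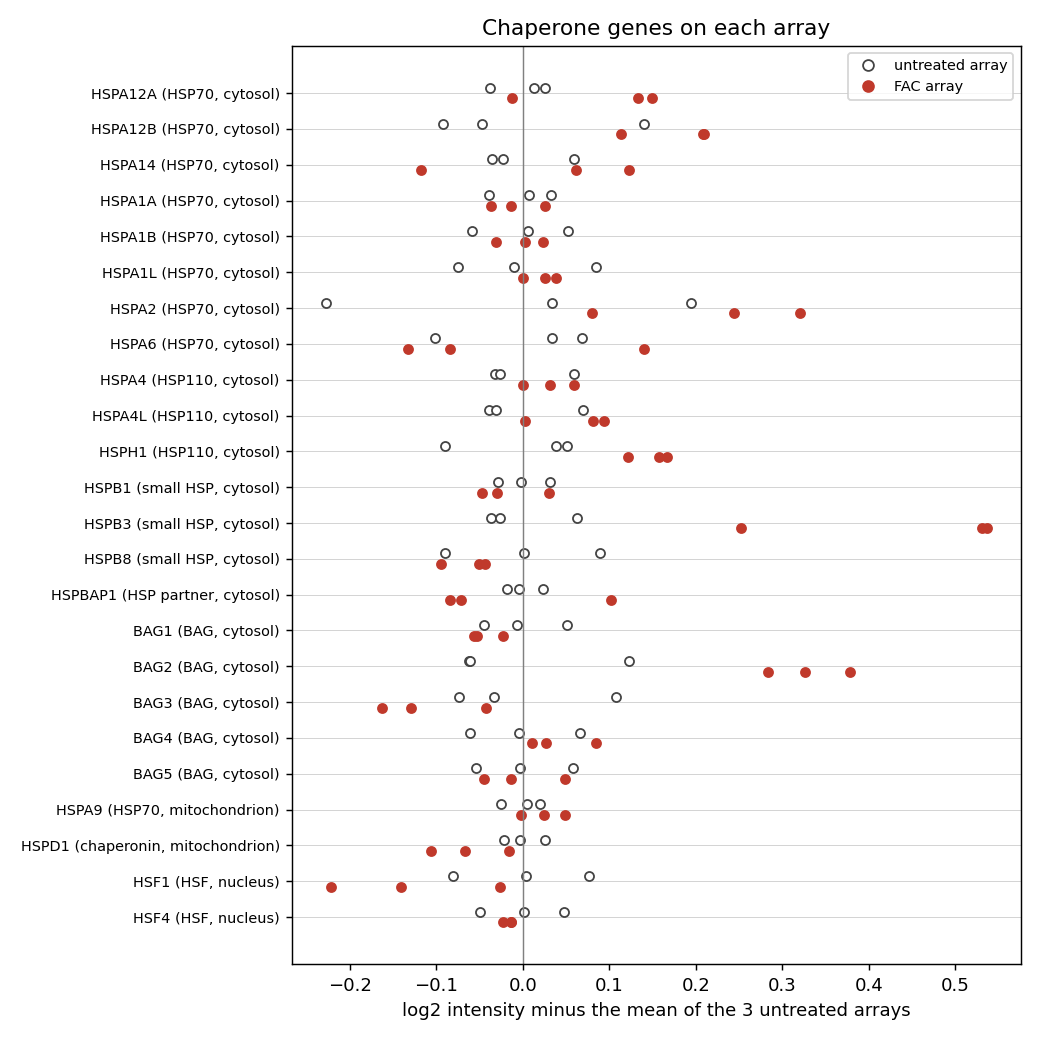
Log2 intensity of each of the 24 members on each array, as the difference from the mean of the 3 untreated arrays. Open circles are untreated and filled circles FAC, with family and compartment in brackets. The FAC arrays lie wholly above the untreated ones for HSPB3, BAG2 and HSPH1, and overlap with them for the other 21 genes.

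HSPB3 encodes a small heat shock protein known mainly from muscle, where it pairs with HSPB2. It measured 4.84, 4.94 and 4.85 on the untreated arrays and 5.13, 5.40 and 5.41 on the FAC arrays. The groups did not overlap, and FAC replicate 1 lay lowest of the FAC arrays. The change was 0.44 ± 0.09 (1.36-fold, 95% interval 1.18-fold to 1.55-fold, adjusted p = 0.0343). Its signal was low, at percentile 14.8 when genes were ranked by mean intensity, a place that depends on the probe as well as on the transcript. Without untreated replicate 1 the adjusted p was 0.103, without untreated replicate 2 it was 0.0594, without untreated replicate 3 it was 0.119, without FAC replicate 2 it was 0.102 and without FAC replicate 3 it was 0.104. Without FAC replicate 1 HSPB3 still passed, with a change of 0.53 (adjusted p = 0.0226).

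BAG2 encodes a nucleotide exchange factor of HSP70 that also restrains the ubiquitin ligase CHIP, and so can spare HSP70 clients from degradation. It measured 9.25, 9.06 and 9.06 on the untreated arrays and 9.45, 9.50 and 9.41 on the FAC arrays. The groups did not overlap, and untreated replicate 1 stood nearest to the FAC arrays. The change was 0.33 ± 0.07 (1.26-fold, 95% interval 1.13-fold to 1.40-fold, adjusted p = 0.0403). BAG2 passed without untreated replicate 1 (adjusted p = 0.0341), but without untreated replicate 2 the adjusted p was 0.104, without untreated replicate 3 it was 0.142, without FAC replicate 1 it was 0.143, without FAC replicate 2 it was 0.121 and without FAC replicate 3 it was 0.0880. With each array centred on its median the adjusted p was 0.0503. In the RefSeq gene table BAG2 overlaps RAB23, which was not analysed here, and whether the probe separates the strands is not given in the sources used here.

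The other BAG genes among the members did not pass. BAG3, which with HSPB8 steers clients to autophagy, measured 8.96, 9.14 and 8.999 on the untreated arrays and 8.87, 8.90 and 8.99 on the FAC arrays. These values overlapped, since FAC replicate 3 lay above untreated replicate 1 (-0.11 ± 0.07, adjusted p = 0.456). BAG1, which links HSP70 to the proteasome, measured 7.83, 7.79 and 7.88 and then 7.78, 7.78 and 7.81 with FAC (-0.04 ± 0.05, adjusted p = 0.733). BAG4 changed by 0.04 ± 0.06 (adjusted p = 0.778), and BAG5, which carries several BAG domains, by -0.0031 ± 0.06 (adjusted p = 0.983). Of 5 BAG genes 1 rose and 0 fell, and the median was -0.0031. Differences between the BAG genes were not tested.

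The HSP110 proteins are large relatives of HSP70 that act as its exchange factors. HSPH1, the heat-inducible one, measured 10.42, 10.29 and 10.43 on the untreated arrays and 10.55, 10.54 and 10.50 on the FAC arrays. It was the third and last member whose groups did not overlap, which held for 12.5% of members and 23.4% of all genes (10.4% with FAC higher). The change was small (0.15 ± 0.06, 95% interval 0.01 to 0.28) and HSPH1 was not called (adjusted p = 0.246). HSPA4 changed by 0.03 ± 0.05 (adjusted p = 0.830) and HSPA4L by 0.06 ± 0.06 (adjusted p = 0.667).

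Among the 9 HSP70 genes with a named probe, 8 of the cytosol and 1 of the mitochondrion, none passed, and the median change was 0.02. HSPA8 was not among them. HSPA1A, the major stress-inducible HSP70 gene, measured 11.18, 11.14 and 11.21 on the untreated arrays and 11.16, 11.20 and 11.14 on the FAC arrays. The groups overlapped fully, and the change of -0.0085 ± 0.05 had a 95% interval from -0.13 to 0.11, or 0.915-fold to 1.08-fold. Its near-identical neighbour HSPA1B measured 10.89, 10.83 and 10.94 and then 10.86, 10.91 and 10.89 with FAC (-0.0016 ± 0.05, 95% interval -0.13 to 0.12). Arrays cannot fully separate this pair, so the values are best read together. HSPA6, which in many cell types is expressed only under strong stress, had a low signal of 5.37, 5.54 and 5.51 on the untreated arrays and 5.61, 5.34 and 5.39 with FAC. Both the highest and the lowest of these were FAC arrays (-0.03 ± 0.08, adjusted p = 0.911), and HSPA6 shares much of its sequence with the pseudogene HSPA7.

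The annotation gives 5 probes each to HSPA1A, HSPA1B and HSPA1L. Of the HSPA1A probes, 3 carried identical values on all arrays, as did 3 of the HSPA1L probes, so these are not separate measurements. Over all probes the change lay between -0.03 and -0.0085 for HSPA1A, between -0.02 and 0.03 for HSPA1B and between 0.02 and 0.05 for HSPA1L, a relative best known from testis. None of the 15 probes thus differed between the groups by more than 0.0524, although the mean intensity of the HSPA1B probes ran from 10.07 to 10.89.

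**Figure D2:**
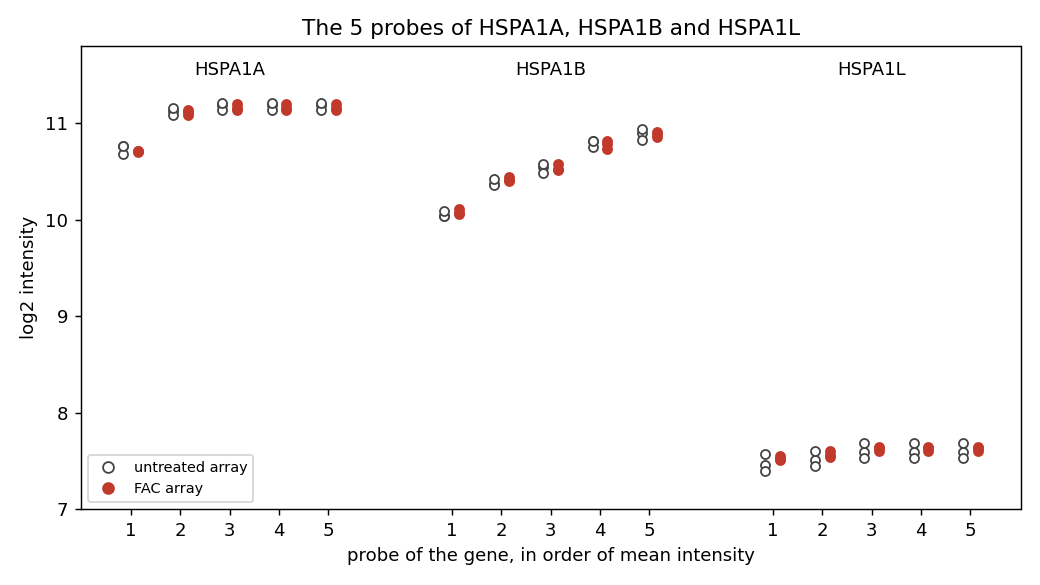
Log2 intensity on each array for the 5 probes of HSPA1A, HSPA1B and HSPA1L, ordered by mean intensity within each gene (open circles untreated, filled circles FAC, 3 arrays each). Untreated and FAC arrays overlap for the probes of all 3 genes, and the probes of HSPA1B differ among themselves from 10.07 to 10.89.

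Of the other cytosolic HSP70 genes, HSPA2, best known from sperm development, measured 7.77, 7.51 and 7.93 on the untreated arrays and 7.98, 8.06 and 7.82 with FAC. Untreated replicate 3 lay above FAC replicate 3, and the change of 0.21 ± 0.11 was not called (adjusted p = 0.384). HSPA12B, a distant relative expressed in endothelium, measured 7.001, 6.81 and 6.77 and then 7.07, 6.97 and 7.07 with FAC (0.18 ± 0.07, adjusted p = 0.267). Its untreated replicate 1 lay just above FAC replicate 2. HSPA12A changed by 0.09 ± 0.06 (adjusted p = 0.524), and a second, dimmer HSPA12A probe by -0.02. HSPA14, which works at the ribosome, changed by 0.02 ± 0.07 (adjusted p = 0.912).

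HSPB1 (HSP27), a small heat shock protein that also protects the actin skeleton, measured 13.26, 13.20 and 13.23 on the untreated arrays and 13.20, 13.26 and 13.18 with FAC. The groups overlapped (-0.02 ± 0.05, 95% interval -0.14 to 0.10, adjusted p = 0.911). HSPB8, the partner of BAG3, measured 6.16, 6.07 and 6.25 and then 6.07, 6.12 and 6.11 with FAC (-0.06 ± 0.06, adjusted p = 0.667). HSPBAP1, named for its binding to HSPB1, changed by -0.02 ± 0.06 (adjusted p = 0.918). Among the 3 small heat shock protein genes, HSPB3 was thus the 1 that rose, while the other 2 had changes below 0.

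In the mitochondrion, HSPA9 (mortalin) drives protein import and takes part in making iron-sulfur clusters. It measured 11.05, 11.095 and 11.08 on the untreated arrays and 11.12, 11.07 and 11.10 with FAC. The groups overlapped, and the change of 0.02 ± 0.05 had a 95% interval from -0.09 to 0.14 (adjusted p = 0.861). HSPD1 (HSP60), the chamber-forming chaperonin, measured 10.58, 10.56 and 10.54 and then 10.54, 10.49 and 10.45 with FAC. FAC replicate 1 lay within the untreated range, and the change was -0.06 ± 0.05 (95% interval -0.18 to 0.06, adjusted p = 0.609). The median of this pair was -0.02, beside 0.02 for the 20 cytosolic genes. The difference between the compartments was not tested, and 2 genes are few for it.

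HSF1, the main regulator of the heat shock response, had the lowest change of all 24 members. It measured 8.36, 8.44 and 8.51 on the untreated arrays and 8.30, 8.21 and 8.41 with FAC. FAC replicate 3 lay above untreated replicate 1, and the gene was not called (-0.13 ± 0.07, adjusted p = 0.404). HSF4, best known from the lens, measured 7.74, 7.79 and 7.84 and then 7.78, 7.77 and 7.78 with FAC (-0.02 ± 0.05, adjusted p = 0.905), and a second, dimmer probe gave 0.08. HSF1 acts largely through its protein state, which these arrays do not measure.

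**Figure D3:**
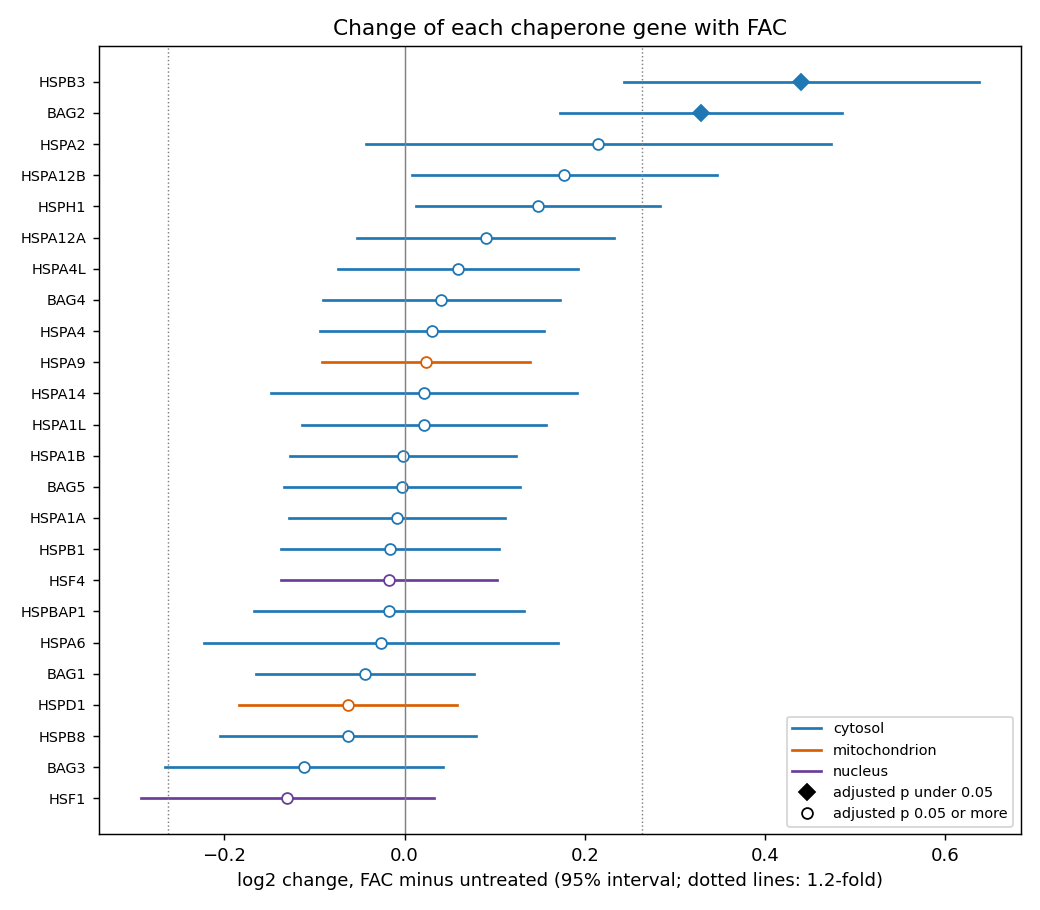
Log2 change of each member with FAC and its 95% interval, coloured by compartment. Diamonds mark the 2 genes called changed, and dotted lines lie at 1.2-fold in both directions. HSPB3 and BAG2 lie apart on the right, and the intervals of 17 of the 24 genes lie inside the dotted lines.

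The size of change that the data leave room for was small in most members. The 95% interval lay inside 1.2-fold in either direction for 17 of 24 members (70.8%, against 55.1% of all genes), the others being HSPB3, BAG2, HSPA2, HSPA12B, HSPH1, BAG3 and HSF1. It lay inside 1.5-fold for all members but HSPB3. The members had a higher median level than all genes (8.27 against 7.18), and these shares were not matched for level. In simulated data with 3 arrays per group and 200 changed genes, 5.52% of genes changed by 0.25 were called, and 74.5% of those changed by 0.5. The data themselves gave 555 calls, and the cutoff on p depends on that number. These shares are therefore a rough guide and not the sensitivity for the members.

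Promoters are shown for HSPB3 and BAG2, which rose, and for HSPA1A and HSPA6, whose heat induction is well known and which were not called. Each runs from 250 bases before the start of the gene to 50 after it (RefSeq, GRCh38.p14, plus strand). Capitals mark paired units of a heat shock element, the binding sequence of HSF1, in the arrangements GAANNTTC or TTCNNGAA. Each arrangement reads the same on both strands.
HSPB3, chr5:54455449-54455748: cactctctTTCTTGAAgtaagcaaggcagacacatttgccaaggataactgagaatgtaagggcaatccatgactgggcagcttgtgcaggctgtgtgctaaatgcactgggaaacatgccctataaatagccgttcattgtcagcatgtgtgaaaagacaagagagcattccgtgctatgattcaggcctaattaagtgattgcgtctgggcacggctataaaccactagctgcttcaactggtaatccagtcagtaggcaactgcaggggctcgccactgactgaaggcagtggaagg
BAG2, chr6:57172076-57172375: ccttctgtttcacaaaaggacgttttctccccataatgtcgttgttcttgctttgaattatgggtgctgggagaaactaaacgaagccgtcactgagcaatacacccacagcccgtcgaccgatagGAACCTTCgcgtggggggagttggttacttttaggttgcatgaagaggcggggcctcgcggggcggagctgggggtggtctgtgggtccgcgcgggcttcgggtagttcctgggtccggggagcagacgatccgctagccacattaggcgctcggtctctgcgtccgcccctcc
HSPA1A, chr6:31815293-31815592: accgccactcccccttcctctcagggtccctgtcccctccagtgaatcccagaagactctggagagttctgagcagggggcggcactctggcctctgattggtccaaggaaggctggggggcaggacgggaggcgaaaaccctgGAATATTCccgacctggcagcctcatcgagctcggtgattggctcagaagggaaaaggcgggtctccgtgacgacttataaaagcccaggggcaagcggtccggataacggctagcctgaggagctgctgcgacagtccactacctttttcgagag
HSPA6, chr1:161524290-161524589: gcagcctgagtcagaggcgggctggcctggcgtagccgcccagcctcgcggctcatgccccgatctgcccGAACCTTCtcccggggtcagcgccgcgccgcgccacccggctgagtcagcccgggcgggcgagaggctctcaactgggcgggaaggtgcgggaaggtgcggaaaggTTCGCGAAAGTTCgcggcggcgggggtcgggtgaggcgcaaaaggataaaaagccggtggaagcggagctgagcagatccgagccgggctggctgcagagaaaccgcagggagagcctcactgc
The table held a promoter for 20 of the 24 members. The 3-unit element GAANNTTCNNGAA, searched on both strands, occurred in 1 of them, HSPA6 (74 to 62 bases before the start), and in 0.487% of all 27305 promoters of this length. At least 1 of the 2-unit arrangements, which the 3-unit element contains, occurred in 9 of the 20 (45.0%) and in 13.7% of all promoters. The 9 were HSPB3, BAG2, HSPA1A, HSPA1B, HSPA1L, HSPA6, HSPA9, HSPB1 and HSPB8, and HSPA1A and HSPA1L share 1 match, since their promoters overlap. So both genes that rose and 7 that were not called held such a match. A match is a description of letters and not a measured site of binding.

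Folding partners outside the rule were read from lists by compartment, to set the members beside the rest of each folding system. In the cytosol, 1 of 22 measured cochaperones and prefoldin subunits fell (4.55%, against 1.85% of all genes called lower with FAC), and 0 rose. With 1 gene that share is too coarse to set the list apart. The gene was BBS12, which encodes a chaperonin-like protein needed for cilia (from 6.58 ± 0.06 to 6.24 ± 0.06, n = 3 each, -0.35 ± 0.06, adjusted p = 0.0224). BBS12 was not called when the first or the third untreated array was left out, at an adjusted p of 0.0763 and 0.0892, or the first or the third FAC array, at 0.101 and 0.0780, nor with every probe fitted (0.0962) or the replicate number as a block (0.0815). The median of that list was -0.03. In the mitochondrion, 0 of 17 folding and protease genes were called by limma, with 2 at an unadjusted p under 0.05 and a median of -0.03. TRAP1, the mitochondrial HSP90, had the smallest p (-0.14 ± 0.05, adjusted p = 0.220), and HSCB, the J-domain protein of iron-sulfur cluster assembly, changed by -0.01 ± 0.06 (adjusted p = 0.946).

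The ER list differed from these in its values. Of 35 listed ER folding partners only 19 were measured. Of these 19, 3 fell (15.8%, against 1.85% of all genes called lower with FAC) and 0 rose. In 14, all 3 FAC arrays lay below all 3 untreated ones (73.7%, against 13.0% of all genes in that direction). The median change was -0.18, beside -0.0041 over all genes, and 18 of 19 changes were below 0. ERO1A, the oxidase that drives disulfide formation, measured 9.99, 10.05 and 10.09 on the untreated arrays and 9.67, 9.64 and 9.67 with FAC (-0.38 ± 0.05, adjusted p = 0.0103). HYOU1, the ER relative of HSP110, measured 9.59, 9.74 and 9.73 and then 9.37, 9.36 and 9.40 with FAC (-0.31 ± 0.06, adjusted p = 0.0340). For both genes the groups were well apart, and MANF was the third gene that fell (-0.37 ± 0.05, adjusted p = 0.00944). The cytosolic relative HSPH1 had a change of 0.15 ± 0.06. ER chaperones of the rule such as HSPA5, HSP90B1 and DNAJB9 were not analysed here, the lists were chosen with earlier results of these data known, and the difference between the lists was not tested. With 1 array left out, between 1 and 3 ER partners fell. MANF passed each time, but with every probe fitted and adjusted together, or with the replicate number as a block, 0 ER partners were called (MANF adjusted p = 0.0530 and 0.0549). ERO1A reached an adjusted p of 0.0514 without untreated replicate 3 and of 0.0541 without FAC replicate 1. HYOU1 reached an adjusted p of 0.0829 and 0.122 when the second and the third untreated array were left out, and of 0.132, 0.103 and 0.0836 without the first, the second and the third FAC array.

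**Figure D4:**
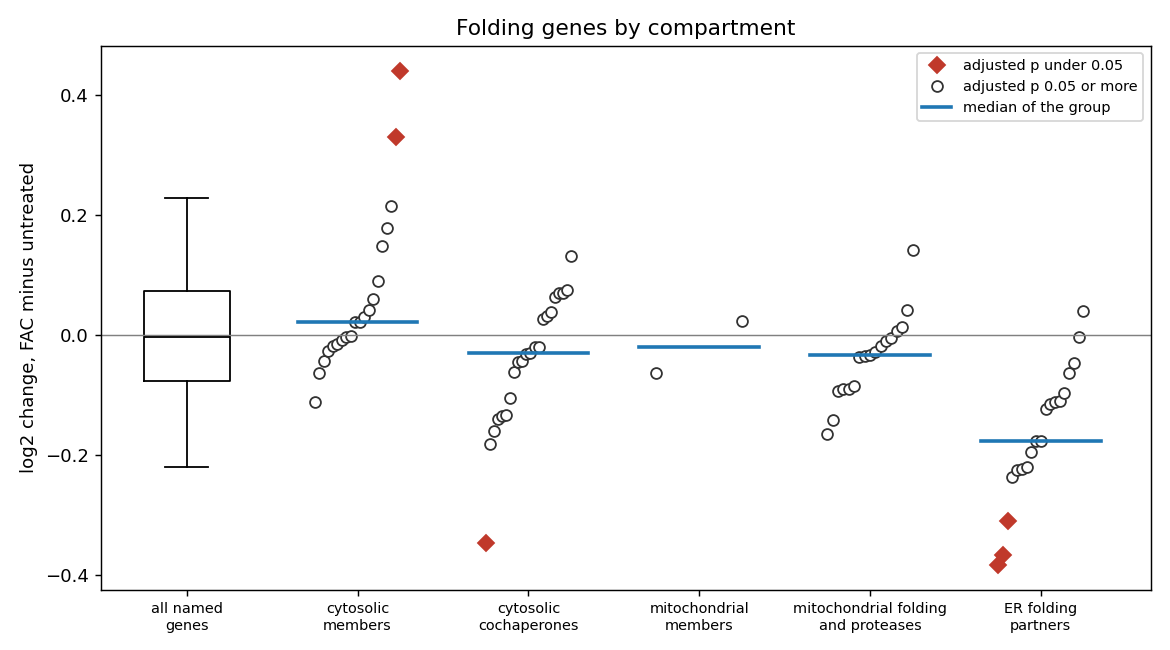
Log2 change with FAC of the cytosolic and mitochondrial members and of the partner lists of each compartment, each point a gene (diamonds called changed), with the group median as a line and, for all named genes, a box with whiskers from the 5th to the 95th percentile. The ER partners centre on -0.18, while the other groups centre between -0.03 and 0.02.

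Over all 14884 genes 555 were called, 280 higher and 275 lower with FAC. Array medians ran from 6.03 to 6.09, and the 6 arrays correlated with Pearson's r between 0.991 and 0.995 across probes. Of 15 measured markers of retinal pigment epithelium none were called, with 3 at an unadjusted p under 0.05 (RLBP1 0.31 ± 0.08, adjusted p = 0.0843). Their mean level ran from 7.87 to 8.07 on the untreated arrays and from 7.97 to 8.01 with FAC. On the untreated arrays TYRP1 measured 10.45, 9.48 and 10.28, and TYR 7.97, 6.88 and 7.86. Untreated replicate 2 thus lay lowest for both, but not for PMEL (7.13, 7.17 and 6.90). The transcription factor OTX2 measured 11.10 untreated and 11.04 with FAC, but RPE65, the defining enzyme of the visual cycle, measured 5.67 and 5.69, at percentile 22.6. The 5 measured markers of blood and endothelium averaged between 6.85 and 7.01 untreated and between 6.83 and 6.91 with FAC. By limma 0 were called, with 1 at an unadjusted p under 0.05 (KDR -0.36 ± 0.14, adjusted p = 0.238). CD68 stood at percentile 98.5, and the others lay between 14.4 (PECAM1) and 43.5 (KDR). For CD68 all 3 FAC arrays lay below the untreated ones (-0.12 ± 0.06, adjusted p = 0.360). The 7 markers of neurons, glia and photoreceptors, which share RLBP1 with the first list, averaged between 6.78 and 6.83 untreated and between 6.85 and 6.92 with FAC. None were called by limma, but 5 (71.4%, against 17.2% of all genes) had an unadjusted p under 0.05. All 3 FAC arrays lay above the untreated ones for 4 of them (10.4% of all genes) and below for 1 (SYT1). The 4 were AQP4, GFAP, SAG and RLBP1, at percentiles 14.3, 31.3, 34.4 and 46.0, while SYT1 stood at 85.3. The part of these marker genes in the results was not tested. In such bulk samples a different share of cells and a different amount of RNA per cell cannot be told apart.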

How the data were processed

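From each of the 6 cultures 250 ng of total RNA was labelled with biotin for 1 array, per the labels' protocols. The authors deposited log2 values of 53617 probes in 6 columns. The submitters' processing notes name Partek 6.6 and RMA with no role or order, and the log2 unit was read from the values (2.41 to 14.22). The table has no detection calls or scan dates, so batches could not be examined. Only probes that the platform annotation gives exactly 1 symbol were used, 16098 in all. A gene's value is its probe with the highest mean (38 probes for 24 members, 1 pseudogene left out). The groups were fitted in R 4.3.3 using limma 3.58.1 (lmFit, eBayes, 2-sided, no renormalisation), with Benjamini-Hochberg adjustment over 14884 genes; the median SE was 0.07. The number of arrays limits the precision. In 10 simulated sets with 200 changed genes among 14884, 97.4% of changes of 1 were called and 5.23% of calls were false.

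Members, compartments and lists were chosen with earlier results of these data known; compartments come from general knowledge. Named are all members called, each compartment's 2 highest and 2 lowest changes and 2 highest levels, each family's smallest p and fixed well-known members. The remaining members were added for completeness. From each list every gene called is named, or the 1 with the smallest p. HSCB, OTX2, RPE65, TYRP1, TYR, PMEL, CD68, PECAM1 and SYT1 were added after their values were seen. The 2-unit motif was chosen after the 3-unit one had been searched. Same-numbered replicates were not paired: their deviations correlated at -0.02, -0.03 and -0.15. The alternatives are in the closing section. No value was available for the planned medians of ER and CCT members, which have no named probe.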

Additional observations from a re-analysis of the deposited data

How the results depend on the processing

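Of 14 alternatives, none called any of the 22 members that had not passed; 14 of these kept the sign of their change throughout, and 8 (BAG5, HSF4, HSPA14, HSPA1A, HSPA1B, HSPA1L, HSPA6 and HSPBAP1) did not. The 2 rises of HSPB3 and BAG2 stayed at 2 with quantile normalization, an intensity trend with a robust prior, array weights and the mean of all probes. They became 1 without the dimmest genes (9923 of 14884 fitted), which leaves out HSPB3 by construction, and 1 with arrays centred on their medians (BAG2 adjusted p = 0.0503). They became 0 with every probe fitted and adjusted together, where 53617 tests replace 14884 (BAG2 adjusted p = 0.142, HSPB3 0.122). With the replicate number as a block, which the labels do not make a pairing, they became 0 as well (BAG2 adjusted p = 0.0953, HSPB3 0.0596). The change itself stayed between 0.30 and 0.39 for BAG2 and between 0.39 and 0.53 for HSPB3. Leaving out 1 array gave between 0 and 1 rises. No alternative gave a fall among the members. The 3 falls among ER folding partners became 6 without the dimmest genes, 6 with the intensity trend, 0 with every probe fitted, 0 with the replicate block, and between 1 and 3 without 1 array; their median change of -0.18 lay between -0.20 and -0.12 when an array was left out. The 555 calls over all genes became 840 without the dimmest genes, 1026 with the intensity trend, 254 with every probe fitted, 184 with the replicate block and between 147 and 447 without 1 array; apart from the smaller number of genes, arrays or residual degrees of freedom in some of these fits, the cause was not tested. The medians of the cytosolic and mitochondrial members moved by less than the spread between replicates under every alternative run. The planned medians of ER members and CCT subunits were not run, since no ER or CCT gene had a named probe. No array's signal could be set against background, as the table has no detection calls.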

Other observations

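The pseudogene HSPA7, left out of the members and close in sequence to HSPA6, measured 5.50, 5.34 and 5.61 on the untreated arrays and 5.55, 5.63 and 5.58 with FAC, and was not called (0.10 ± 0.07, adjusted p = 0.555).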
